A study of Xenopus laevis with 9 samples.

Results

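Ribosomal protein genes and the use of their L and S copies were described in the dissected anterior part of *Xenopus laevis* embryos treated with retinoids. The members were the 138 rows, of 58413 in the count table, whose symbol is rpl or rps followed by a number, or rplp0 to rplp2, and which end in L or S, with ribosomal protein S6 kinases left out. They carried 80 gene symbols. By symbol alone, 81 rows were assigned to the large subunit (5 of them to the stalk) and 56 to the small subunit. A symbol does not show that each product is part of the mature ribosome. The remaining row, rps19bp1.L, names a protein that binds Rps19 and is not a subunit. In 58 cases the table held both an L and an S row of the same symbol. RNA was measured after 10 µM 4-oxo-RA, 1 µM RA (retinoic acid) or DMSO, the vehicle, which the labels also give as 10 µM, with 3 libraries in each group. All embryos were wild type, came from 3 females, were cut at Nieuwkoop-Faber (NF) stage 12.5 and were collected at NF stage 15. The labels do not tie a library to a female, so p-values measure the spread between these libraries. 4-oxo-RA is an oxidised form of retinoic acid.

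Ribosomes are built from ribosomal RNA and a set of small basic proteins, most of which are present once in each ribosome. Messages for these proteins are among the most abundant in growing cells, and in vertebrates they begin with a run of pyrimidines through which their translation is controlled as a group. *X. laevis* is allotetraploid: its L and S subgenomes come from a pair of ancestral species, and an L and an S copy of a gene are called homeologs.

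The libraries held 9768025 to 15884096 counts after 4-oxo-RA, 11057548 to 16162443 after RA, and 9404644 to 20883648 in DMSO. Levels below are CPM, a row's counts relative to its library's total, scaled by the trimmed mean of M values (TMM), and a difference is a log2 fold change with its SE from edgeR's quasi-likelihood test over 20811 genes. Levels are not per length, so they rank reads and not messages. The tissue label held: anterior neural markers summed to 1276 to 1486 CPM after 4-oxo-RA, 1166 to 1485 after RA and 1426 to 1567 in DMSO, while posterior markers stayed at or below 8.777, 12.404 and 6.800 CPM in those groups, with 3 of their 6 rows at 0. Of 12 tested anterior neural rows, 2 were lower after 4-oxo-RA and 5 after RA, where 0.111 and 0.456% of all genes were. Axial mesoderm markers were lower in 1 of 4 tested rows after 4-oxo-RA and in 2 after RA, and summed to 26.6 to 43.8 CPM after 4-oxo-RA, 21.8 to 46.7 after RA and 40.8 to 70.8 in DMSO. Cement gland markers were lower in 0 of 5 rows after 4-oxo-RA and 1 after RA, and epidermal markers in 0 of 6 and 1. Cement gland markers summed to 2327 to 2672 CPM after 4-oxo-RA, 2393 to 2434 after RA and 2641 to 3615 in DMSO. Epidermal markers summed to 7581 to 8418, 7291 to 8837 and 7005 to 8955 CPM in those groups. Both sums were above those of the anterior neural markers. Paraxial mesoderm, cardiac and endodermal, blood and posterior markers had 0 calls in either direction (edgeR). With replicate number as a block (described below), 3 of 7 cardiac and endodermal rows were lower after each retinoid. Rows called lower after 4-oxo-RA and RA were then 5 and 5 for anterior neural, 2 and 3 for cement gland. They were 2 and 3 for axial mesoderm and 2 and 2 for epidermis, with 1 epidermal row higher after RA. Over all genes the block called 1.31 and 3.17% lower, and 3.50% higher after RA. The 2 tested posterior rows were both higher after RA than in DMSO, at a median log2 fold change of 1.53, with unadjusted edgeR p under 0.05. Whether a change in cell types plays a part in the values below was not tested, and fewer cells of a type cannot be told apart from less RNA per cell in whole tissue.

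Ribosomal protein rows took about 4 to 5% of all counts. Their share was 4.03, 4.58 and 4.31% after 4-oxo-RA, 4.40, 4.64 and 4.86% after RA, and 4.22, 4.40 and 4.17% in DMSO. The RA libraries sat above or level with the highest DMSO library, and the 4-oxo-RA libraries spanned the DMSO range. The mean was 4.31 ± 0.280% after 4-oxo-RA, 4.63 ± 0.233% after RA and 4.26 ± 0.118% in DMSO (SD, n = 3 each). Neither difference from DMSO passed an exact two-sided permutation test, whose smallest possible p at this size is 0.1: it was 0.371 percentage points for RA (exact permutation p = 0.2) and 0.0438 points for 4-oxo-RA (exact permutation p = 0.9). 4-oxo-RA minus RA was −0.327 points (exact permutation p = 0.2), at doses that differ by design. Between libraries with the same replicate number, RA exceeded DMSO by 0.177, 0.245 and 0.691 points, the last from replicate 3.

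**Figure D1:**
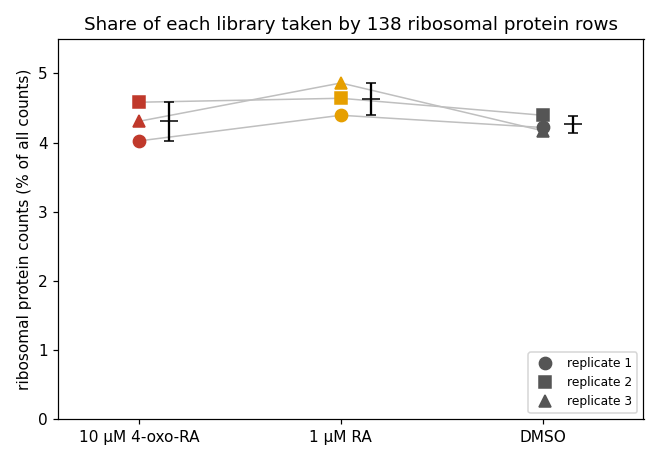
Percent of each library's counts that fell on the 138 ribosomal protein rows, for 10 µM 4-oxo-RA, 1 µM RA and DMSO, with grey lines joining libraries of the same replicate number and black bars giving mean ± SD. RA replicate 3 is the highest library, at 4.86%.

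In all, 119 members had enough counts to be tested, and 107 of these averaged 100 CPM or more. The most reads fell on rpl3.L, which encodes a large subunit protein close to the peptidyl transferase centre. It had 1420, 1409 and 1348 CPM after 4-oxo-RA, 1559, 1472 and 1679 CPM after RA, and 1508, 1375 and 1432 CPM in DMSO, so the groups overlapped. Among the next were rpl10a.S, rpl4.L, rps20.L and rpl7.L, with mean levels of 1345, 1002, 915 and 809 CPM. The lowest tested members included rplp0.L, rps26.S, rps19.L, rpl6.L and rps25.L, at means of 0.506 to 3.60 CPM, and each is the low copy of a pair whose other copy was abundant. The 19 members that were not tested had between 0 and 79 counts over all 9 libraries together.

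By raw counts, the pairs fell into 2 kinds. L share is the percent of a pair's raw counts that came from the L row, and 57 of the 58 pairs had at least 20 counts in every library. It is not per length, so an unequal share can also come from the length of the copies or how uniquely their reads map. That was not tested, and the shares below compare reads. The exception, rpl3l, a muscle paralog of rpl3 in mammals, had 4 counts in all on its L and S rows. A further row under a LOC identifier, provisionally named rpl3l and outside the pair, had a mean of 401 CPM. In 34 pairs both copies were read, with L shares of 25.7 to 70.6%. In the other 23 pairs one copy held over 95% of the counts, and nothing lay between: 13 pairs had L shares under 5% and 10 had 99.2% or more. One-sided pairs were 40.4% of the ribosomal protein pairs, against 45.8% of the 5620 pairs tested across the genome. L exceeded S in every library in 28 pairs (49.1%), S exceeded L in 25 and 4 were mixed, while over all tested pairs L was the higher copy in every library in 52.4%. The median L share was 52.3% for ribosomal protein pairs and 61.0% for all pairs. With one-sided pairs left out, the medians were closer, at 53.4 and 56.0%.

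**Figure D2:**
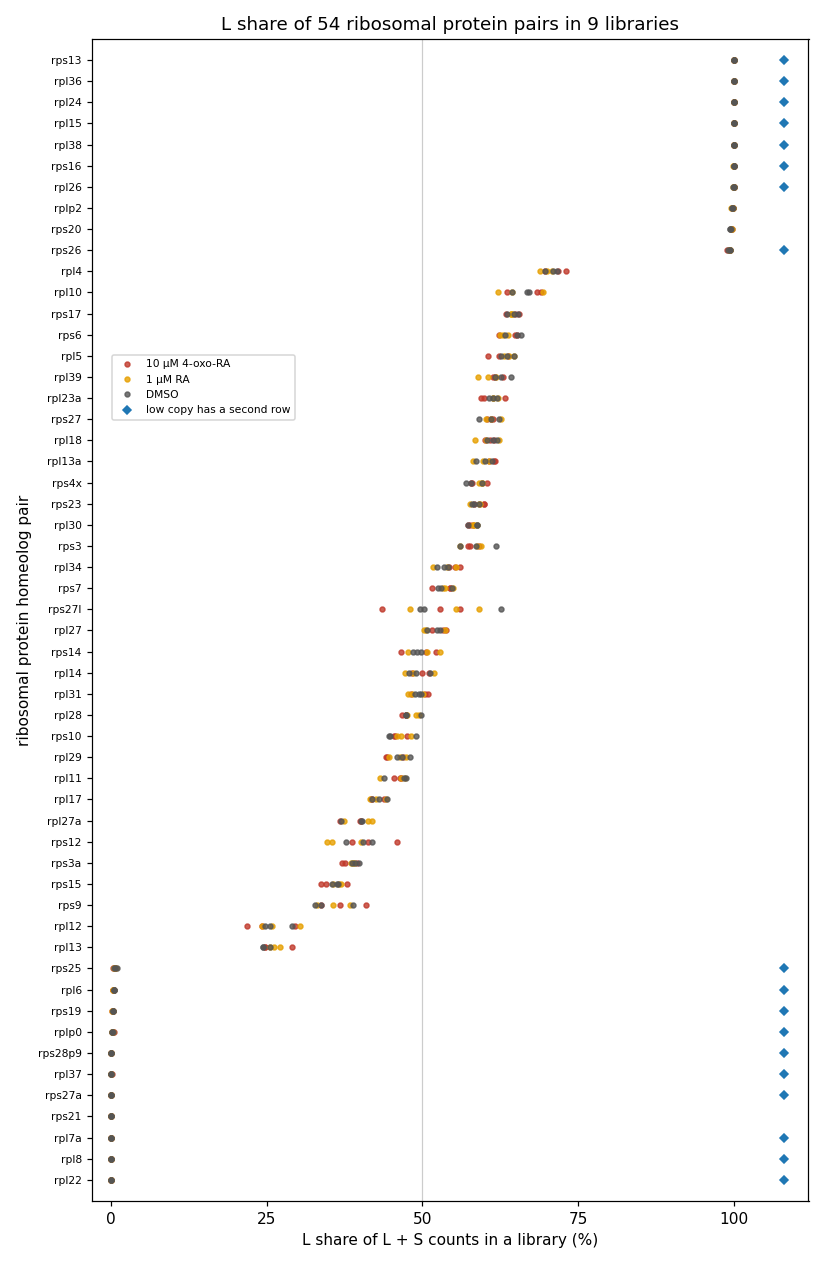
L share (percent of L + S raw counts) of 54 of the 57 tested ribosomal protein pairs, 1 point per library, coloured by treatment and sorted by the share of summed counts. Blue diamonds mark pairs whose low copy has a second row in the table, which are 18 of the 21 drawn pairs at the edges and 0 of the 33 drawn between 25.7 and 70.6%.

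Among pairs with both copies read, rpl4, a protein lining the peptide exit tunnel, leaned most to L, at 70.6% of summed counts. Next came rpl10, a late-joining large subunit protein, at 66.5%. Its L row had 378, 454 and 471 CPM after 4-oxo-RA, 434, 513 and 565 CPM after RA, and 427, 414 and 438 CPM in DMSO, against 217, 210 and 211, then 264, 226 and 314, then 237, 206 and 215 CPM for the S row in the same groups. L was the higher row in every library. The 6 pairs that leaned most to S of these 34 were rpl13, rpl12, rps9, rps15, rps3a and rps12, with L shares of 25.7, 26.4, 35.3, 36.0, 38.8 and 39.5%. These and rpl4 were picked out after their values were seen.

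The pairs nearest to equal counts of L and S were rps14, rpl14, rpl31 and rpl28, at 50.1, 49.8, 49.4 and 48.1%. Rps14 is a small subunit protein whose reduced dosage is linked to a human anaemia. The 2 proteins that carry the ribosomal RNA made outside the nucleolus, Rpl5 and Rpl11, bind Mdm2 in mammals when ribosome assembly fails, and their pairs leaned apart, with L shares of 63.3% for rpl5 and 45.8% for rpl11. The S6 kinase substrate rps6 had an L share of 63.9%, and rpl39, which encodes a tunnel protein, 61.9%. The paralogs rps27 and rps27l had L shares of 61.1 and 53.3%, but rps27l was read at only 8.20 CPM (L) and 7.35 CPM (S) on average, against 371 and 237 CPM for rps27. The 19 large subunit pairs and the 15 small subunit pairs with both copies read had median shares of 52.3 and 53.4%.

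One-sided pairs included proteins of known interest. The S copy held nearly all counts of rplp0, the base of the ribosomal stalk, of rps19, which is mutated in Diamond-Blackfan anaemia, and of rpl22. For rps19 the L row had 1.46, 1.82 and 2.61 CPM after 4-oxo-RA, 2.29, 2.08 and 1.88 CPM after RA, and 1.88, 1.77 and 1.97 CPM in DMSO. Its S row had 710, 745 and 766 CPM after 4-oxo-RA, 766, 748 and 848 CPM after RA, and 682, 656 and 742 CPM in DMSO. Of the L and S rows, the L row held nearly all counts of rplp2, an acidic stalk protein, though a further row named rplp2 is described below. The same held for rpl38, which in mouse is needed for the translation of some Hox messages. The rpl38.S row and 7 other low copies (rpl22.L, rpl7a.L, rpl8.L, rps21.L, rpl15.S, rpl24.S and rps13.S) had 0 counts in all 9 libraries. A count of 0 allows these rows up to 0.00399 to 0.0105% of their pair (3 counts of the pair's total, counting error only). The limit holds for the row and not for the gene copy, since some of these copies have counts on another row, described next.

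The table's own rows coincided with this split. In 20 of the 23 one-sided pairs the table held a second row, under a LOC identifier, that RefSeq (assembly Xenopus_laevis_v10.1, used for names only) now assigns to the symbol of the low copy. The other 3 were rps20, rps21 and rplp2. None of the 34 pairs with both copies read had such a row. Over all 5620 pairs, 67.4% of one-sided pairs had one for the low copy, and 32.5% of other pairs had one for either copy. Among pairs without a second row, 8.11% of the 37 ribosomal protein pairs were one-sided, against 28.1% of all 2862. The second rows held few counts themselves, from 0 to 35.5 CPM, with that of rpl38.S the highest. Adding them to their copies, an alternative chosen after the data were seen, left 22 of the 23 pairs one-sided, with rpl38 at an L share of 94.2%, rpl15 at 97.4% and rpl8 at 2.18%. Rows under LOC identifiers that carry only a provisional symbol were not added. For rplp2 and rps21 the table held such a row, at means of 256 and 35.7 CPM. Whether these rows count the low copies was not tested. How reads matching both copies or both rows were counted is not given in the sources used here. Whether the double listing plays a part in the low counts was not tested. L and S endings of 17 members are given the other way round as synonyms in RefSeq, among them both copies of rpl18, rpl28 and rpl39, so an ending can also depend on the annotation version.

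For 22 members no homeolog row had the same symbol. They included rpl10a.S, rpl23.S, rpl35a.S, rps15a.S and rps29.S, and with an L ending rpl19, rpl21, rpl22l1, rpl3, rpl32, rpl35, rpl36a, rpl37a, rpl7, rpl7l1, rpl9, rplp1, rps18, rps19bp1, rps2 and rps24. A missing row does not show the loss of a copy, and the table also listed 46 rows under LOC identifiers with a provisional ribosomal protein symbol, 12 of them at 100 CPM or more. The provisional rows with the most reads were named rps29, rps2, rpl35 and rpl32, at means of 761, 499.5, 446 and 406 CPM. All 46 together took 0.421, 0.493 and 0.460% of counts after 4-oxo-RA, 0.457, 0.491 and 0.543% after RA, and 0.454, 0.465 and 0.458% in DMSO. The table had no row named rpl41.

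After RA most members were slightly higher than in DMSO, and none passed the test by itself. The median log2 fold change of the 119 members was 0.17, between quartiles of 0.11 and 0.22, and 110 were above 0. Over all 20811 genes the median was −0.000135 and 50.0% were above 0. TMM scaling centres most genes near 0 in every contrast, so these all-gene values are a reference and not a finding. At an adjusted p of 0.05, 0 members were higher and 0 lower, while 1.22 and 0.456% of all genes were. DESeq2 and limma-voom also called 0 members. In edgeR 24 of the 119 members had an unadjusted p under 0.05, against 1961 of all 20811 genes. Levels in the 3 RA libraries all lay above the 3 DMSO libraries for 45 members, against 7.78% of all genes, and below for 1, rps20.S, against 6.96%.

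Libraries with the same replicate number deviated together over all genes, so the fit was also made with that number as a block. Over the members alone the correlations of same-numbered libraries ran from −0.0877 to 0.652 and overlapped those of other numbers, −0.598 to 0.260. In this fit 5 of the 119 members rose after RA, a share near that of all genes (3.50%), and 0 fell, against 3.17%. These 5 were rpl15.L, rpl24.L, rpl37.S and rplp1.L of the large subunit and rps3a.S of the small subunit, all named because the block called them. Rpl24 forms a bridge between the subunits, and Rplp1 is an acidic stalk protein that helps recruit translation factors. Without RA replicate 3, 0 members rose in the blocked fit, without DMSO replicate 3 also 0, without DMSO replicate 2 only 1, and without RA replicate 2 the count was 8.

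rpl24.L had 239, 282 and 266 CPM after 4-oxo-RA, 263, 306 and 349 CPM after RA, and 238, 255 and 239 CPM in DMSO. All RA libraries were above all DMSO libraries, and its fold change for RA was 0.33 ± 0.11 (edgeR adjusted p = 0.315, blocked 0.0260). rplp1.L had 241, 287 and 284 CPM after 4-oxo-RA, 309, 321 and 438 CPM after RA, and 276, 256 and 297 CPM in DMSO. RA replicate 3 stood far above the other libraries, and the fold change for RA was 0.36 ± 0.14 (edgeR adjusted p = 0.388, blocked 0.0279).

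rpl15.L had 290, 320 and 323 CPM after 4-oxo-RA, 330, 350 and 446 CPM after RA, and 288, 286 and 329 CPM in DMSO, with no overlap between RA and DMSO and a fold change of 0.32 ± 0.12 (edgeR adjusted p = 0.388, blocked 0.0224). rpl37.S differed by 0.36 ± 0.14 and rps3a.S by 0.25 ± 0.10 (edgeR adjusted p = 0.372 and 0.405, blocked 0.0260 and 0.0364). RA replicate 3 was the highest of the 3 RA libraries for 104 of the 119 members. Replicate 3 was also most often the highest in 4-oxo-RA, for 58 members, and in DMSO, for 60. The same counts over all genes are not given here. Without RA replicate 3 the median fold change of the members for RA was 0.09. Within replicate numbers the median difference between RA and DMSO was 0.11, 0.11 and 0.27 for numbers 1, 2 and 3.

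**Figure D3:**
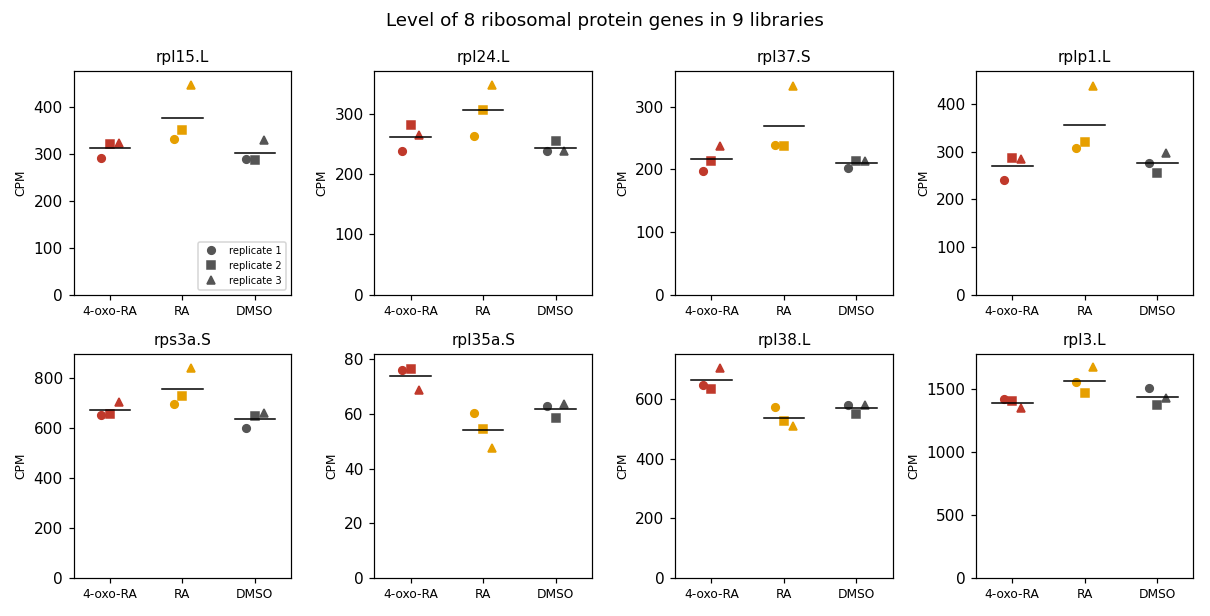
CPM of 8 ribosomal protein genes in each library after 4-oxo-RA, RA and in DMSO, with symbols for replicate number and a bar at the mean of 3. In the first 5 panels RA replicate 3 is the highest point, while rpl35a.S and rpl38.L are highest after 4-oxo-RA.

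After 4-oxo-RA the shift was smaller. The members' median fold change against DMSO was 0.06, between quartiles of 0.01 and 0.10, with 93 of 119 above 0 (all genes: 50%). It was 0.10 without 4-oxo-RA replicate 1, 0.03 without 4-oxo-RA replicate 2 and 0.03 without 4-oxo-RA replicate 3. At an adjusted p of 0.05, 0 members were higher and 0 lower, as against 0.625 and 0.111% of all genes, and the block also gave 0 and 0, against 2.05 and 1.31%. An unadjusted edgeR p under 0.05 was reached by 2 members and by 1298 of all 20811 genes, and DESeq2 and limma-voom called 0 members. Non-overlapping levels above DMSO were found for 10 members (5.90% of all genes) and below for 1, again rps20.S (5.28%). The replicate-number medians were −0.00416, 0.11 and 0.07, so replicate 1 showed no shift.

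4-oxo-RA against RA compares 10 with 1 µM, and a difference cannot be assigned to compound or dose. The members' median fold change was −0.11, with 102 of 119 below 0, against 10367 of all 20811 genes. No member passed in either direction, nor did any gene (0%). An unadjusted edgeR p under 0.05 was reached by 15 members and by 532 of all 20811 genes. With the block 0 members passed, against 0.0240% of all genes higher and 0.135% lower; DESeq2 and limma-voom called 0 members. Levels after 4-oxo-RA lay above all RA libraries for 4 members (2.88% of all genes) and below for 17 (3.60%). Both contrasts that involve RA share its replicate 3, and the median of 4-oxo-RA against RA was −0.04 without it and −0.07 without 4-oxo-RA replicate 1.

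**Figure D4:**
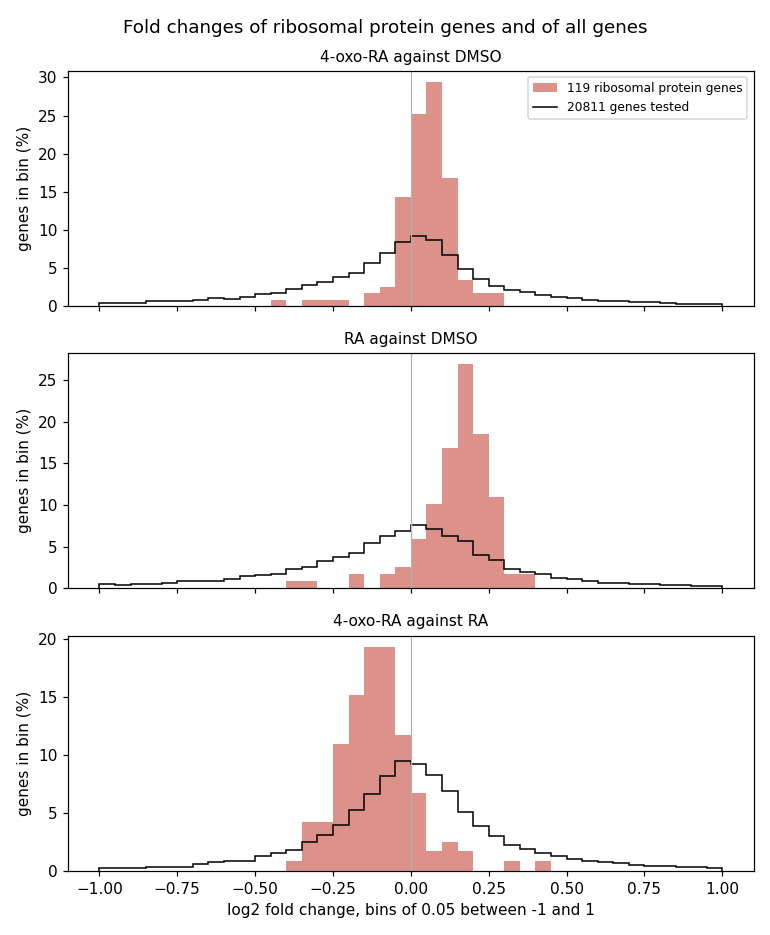
Percent of genes in each log2 fold change bin for the 119 tested ribosomal protein genes (filled) and all 20811 tested genes (line), in 3 contrasts. The members form a narrow peak that lies right of 0 for RA against DMSO (median 0.17), near 0 for 4-oxo-RA against DMSO (0.06) and left of 0 for 4-oxo-RA against RA (−0.11).

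A few members went against the direction of most. rpl38.L had 648, 637 and 707 CPM after 4-oxo-RA, 573, 528 and 510 CPM after RA, and 581, 552 and 582 CPM in DMSO. All 4-oxo-RA libraries lay above the rest, and its fold changes were 0.22 ± 0.09 for 4-oxo-RA and −0.09 ± 0.09 for RA against DMSO (edgeR adjusted p = 0.661 and 0.904). rpl35a.S, from the large subunit, had 76.2, 76.6 and 68.8 CPM after 4-oxo-RA, 60.4, 54.6 and 47.6 CPM after RA, and 63.0, 58.4 and 63.7 CPM in DMSO. It was highest after 4-oxo-RA, at 0.26 ± 0.12 against DMSO, and stood at −0.19 ± 0.12 for RA (edgeR adjusted p = 0.823 and 0.765). Both copies of rpl29, named after their values were seen, were the other members with every 4-oxo-RA library above every RA library.

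Homeolog use did not shift detectably with either retinoid. In a fit of the L-to-S ratio over 5620 pairs, 0 of 57 ribosomal protein pairs changed after RA (0.409% of all pairs did), 0 after 4-oxo-RA (0.0356%) and 0 between them (0%). With the block the counts stayed at 0, against 1.49, 0.712 and 0% of all pairs, and limma on log2 ratios also gave 0 in each contrast. An unadjusted p under 0.05 was reached by 1, 0 and 1 pairs in RA against DMSO, 4-oxo-RA against DMSO and 4-oxo-RA against RA. Over all 5620 pairs it was reached by 339, 239 and 129. In the 34 pairs with both copies read, the mean L share differed from DMSO by −3.24 to 1.42 percentage points after RA and by −3.40 to 2.04 points after 4-oxo-RA. The differences were within 2 points for 32 pairs after RA and 31 after 4-oxo-RA, while the median SD of a share between libraries of one group was 1.48, 1.27 and 1.23 points in 4-oxo-RA, RA and DMSO. Summed over these pairs, the L share was 52.9, 53.3 and 52.7% after 4-oxo-RA, 52.8, 53.3 and 52.3% after RA, and 53.2, 53.2 and 52.6% in DMSO.

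The pair with the smallest p between the retinoids was rps12, for a small subunit protein, with L shares of 38.8, 46.0 and 41.3% after 4-oxo-RA, 35.4, 40.1 and 34.7% after RA, and 40.5, 41.8 and 37.7% in DMSO. The log2 L-to-S ratio differed by 0.32 ± 0.14 between 4-oxo-RA and RA (edgeR adjusted p = 1.00), and the groups overlapped. For RA against DMSO the smallest p belonged to rps20, whose S row holds under 1% of the pair. Its log2 L-to-S ratio was higher after RA than in DMSO by 0.51 ± 0.19 (edgeR adjusted p = 0.633). The next in both DMSO contrasts were likewise one-sided pairs, among them rpl6, where the low copy had 271 counts in all.

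Some members differed between replicate numbers. In edgeR's test of that number 16 of 119 passed, against 22.1% of all genes. Among the smallest p-values were those of rps12.S, rplp0.S, rpl27a.L, rps9.S and rpl8.S. rps12.S had 433, 344 and 449 CPM after 4-oxo-RA, 499.7, 367 and 551 CPM after RA, and 399, 345 and 459 CPM in DMSO, so number 2 was the lowest in each group (edgeR adjusted p = 0.00113). rplp0.S had 166, 214 and 229 CPM after 4-oxo-RA, 216, 242 and 269 CPM after RA, and 181, 215 and 239 CPM in DMSO, with number 1 the lowest in each (edgeR adjusted p = 0.00428). Leaving out single libraries gave between 4 and 20 members, the lowest without 4-oxo-RA replicate 1 or RA replicate 1.

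L share moved with replicate number in 2 of 57 pairs, rps25 and rpl12, a share near that of all pairs (3.33%). The large subunit pair rpl12 had L shares of 24.2, 29.5 and 21.9% after 4-oxo-RA, 24.2, 30.3 and 25.9% after RA, and 25.6, 29.1 and 24.7% in DMSO. Number 2 was the highest in each group (edgeR adjusted p = 0.0284). The one-sided pair rps25 had mean L shares of 0.566, 0.410 and 0.842% in numbers 1, 2 and 3 (edgeR adjusted p = 0.00931). Of the pairs that did not pass, rps12, rps9 and rpl10 had edgeR adjusted p of 0.111 to 0.140. The labels do not say what a number stands for, so a difference between females, batches and dissections cannot be told apart.

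**Figure D5:**
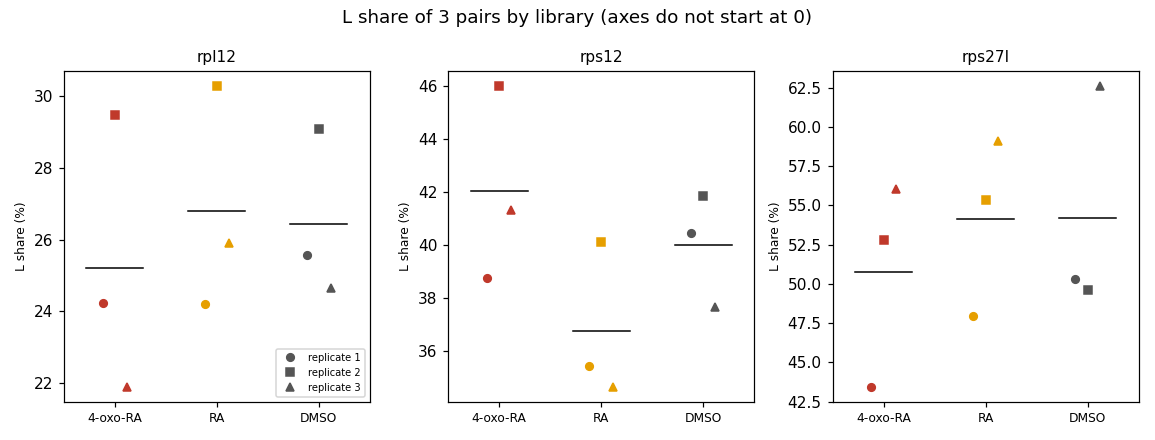
L share (percent of L + S counts) of 3 pairs in each library after 4-oxo-RA, RA and in DMSO, with symbols for replicate number and a bar at the mean of 3; axes do not start at 0. In rpl12 replicate 2 is the highest in all 3 groups, in rps12 it is as well, and rps27l, with few counts, is the most scattered.

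Other genes of the ribosome and of its assembly were set beside the members. Of 37 tested rows for other ribosome proteins and translation factors with pyrimidine-tract messages, 0 passed against DMSO after either retinoid, and their median fold changes were 0.04 for 4-oxo-RA and 0.06 for RA. fau.L, whose product carries the small subunit protein Rps30, had the smallest p for RA, at 0.25 ± 0.10 (edgeR adjusted p = 0.461). Of 71 mitochondrial ribosomal protein rows 0 passed, with medians of 0.09 for 4-oxo-RA and 0.19 for RA. The block called 2 of the 71 higher after RA, a share no larger than the 3.50% of all genes. Of these 2 rows, mrpl21.L had 30.4, 36.0 and 30.0 CPM after 4-oxo-RA, 37.7, 35.0 and 39.8 CPM after RA, and 24.0, 26.9 and 23.6 CPM in DMSO. Both retinoid groups lay above DMSO, and its fold change for RA was 0.59 ± 0.13 (edgeR adjusted p = 0.0558, blocked 0.00603).

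Of 81 tested ribosome biogenesis rows 0 passed in the edgeR fit of filtered counts without the block, with medians of 0.07 for 4-oxo-RA and 0.09 for RA. The block called 4 higher after each retinoid, where 2.05% of all genes were higher after 4-oxo-RA and 3.50% after RA, and 0 lower. The smallest p-values were those of the Myc family, transcription factors that activate ribosome production. myc.S had 393, 295 and 335 CPM after 4-oxo-RA, 415, 291 and 446 CPM after RA, and 251, 204 and 268 CPM in DMSO. The retinoid libraries all lay above DMSO, and the fold change was 0.50 ± 0.17 for 4-oxo-RA and 0.67 ± 0.17 for RA (edgeR adjusted p = 0.464 and 0.102, blocked 0.00267 and 0.000134). mycn.S differed by 0.90 ± 0.22 for 4-oxo-RA and 0.87 ± 0.22 for RA (edgeR adjusted p = 0.158 and 0.0979, blocked 0.00233 and 0.00161). For RA both also passed without the block in DESeq2 (adjusted p = 0.0159 for myc.S and 0.00922 for mycn.S) and in edgeR with no filter on low counts (adjusted p = 6.13e-05 and 0.00291). These 2 settings called more genes in all, 636 and 831 against 349. Neither gene passed for RA under RLE (edgeR adjusted p = 0.108 for myc.S and 0.0957 for mycn.S) or limma-voom (adjusted p = 0.105 and 0.0748). Neither passed with at least 10 counts in every library or in the 2-group fit. With single RA or DMSO libraries left out, only myc.S without RA replicate 2 passed (edgeR adjusted p = 0.0265).

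Among 17 tested p53 target rows, which in vertebrates respond when ribosome assembly fails, only btg2.S passed without the block, and it rose after both retinoids. This antiproliferative gene had 135, 129 and 112 CPM after 4-oxo-RA, 199.98, 176 and 220.5 CPM after RA, and 74.3, 63.1 and 58.6 CPM in DMSO. Its fold changes were 0.94 ± 0.13 for 4-oxo-RA and 1.61 ± 0.13 for RA (edgeR adjusted p = 0.00627 and 9.95e-05). Over all genes, 0.625% were called higher after 4-oxo-RA and 1.22% after RA without the block. The list's medians were below 0, at −0.13 for 4-oxo-RA and −0.19 for RA. With the block cdkn1a.L, a cell cycle inhibitor gene, was lower after RA (blocked edgeR adjusted p = 0.00524), where 3.17% of all genes were. In 4-oxo-RA against RA the block called 1 of the 17 rows lower, against 0.135% of all genes.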

How the data were processed

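Reads per gene were counted by the authors and deposited as raw counts per library, made with the Illumina stranded mRNA kit per the labels' protocols and aligned with a tool the submitters' processing notes list as STAR (2.7.3). Which counter, genome build and annotation they used is not given in the sources used here. Members were taken by symbol, and the gene lists and members were chosen with earlier results of these data known. Named genes are the highest and lowest members and pairs, those with the smallest p-values, members without a homeolog row and a fixed set of well-studied subunits. Genes were tested with edgeR 4.0.16 in R 4.3.3 (quasi-likelihood, TMM, filterByExpr, all 9 libraries, Benjamini-Hochberg over 20811 genes, threshold 0.05), after testing on simulated data. L share was tested in edgeR on L and S columns with a coefficient per library, for pairs with at least 20 counts in every library. Deviations from group means correlated between same-numbered libraries across treatments (r of 0.434 to 0.536 over all genes, −0.326 to −0.132 for other numbers, numbers taken from the sample titles). The replicate block is therefore given where it changes a call against DMSO. Alternatives were RLE, DESeq2 1.42.0, limma 3.58.1 (voom), other filters, 2-group fits, summed homeologs, the block, and each library left out. Some members that the rule for named genes covers are not reported here by name, though they enter the counts.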

Additional observations from a re-analysis of the deposited data

How the results depend on the processing

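For ribosomal protein genes, 0 calls in each treatment contrast was also the count under RLE, DESeq2, limma-voom, no filter, at least 10 counts in every library, 2-group fits, summed homeologs and every single library left out. For their L shares it was 0 under limma on log2 ratios, a minimum of 100 counts, no minimum, the replicate block, single libraries left out and, chosen after the data were seen, pairs without a second row. The exception was the replicate block for genes, which gave 5 genes higher after RA. With the block, leaving out 1 library of RA or DMSO gave 0 to 8 such genes, an alternative chosen after the data were seen. The replicate number test gave 4 to 20 genes and 0 to 2 pairs with single libraries left out, and 15 genes under RLE. The difference in ribosomal protein share of counts between 4-oxo-RA and DMSO turned negative without 4-oxo-RA replicate 2 (−0.0952 points) and without DMSO replicate 3 (−0.00139 points), and ranged from there to 0.184 points over single libraries left out; the cause was not tested. For RA it lay between 0.256 and 0.490 points. With TMM-scaled library sizes as the denominator it was 0.510 points for RA and 0.160 points for 4-oxo-RA, and without the 100 most abundant other genes 0.487 and 0.0893 points. For RA the exact permutation p was 0.1 in both settings, the smallest possible. For 4-oxo-RA the exact permutation p was 0.4 and 0.7. The mean of same-numbered differences (replicate block) was 0.371 points for RA (exact sign permutation p = 0.25, the smallest that 3 pairs allow). The median fold change of the members for RA was 0.09 to 0.21 over single libraries left out and 0.16 to 0.17 under the other settings. The median L share was 52.1 to 52.8% under all settings tried. The count of pairs with L above S in every library stayed at 28 in each setting. With averaged shares and with second rows added it used the same L and S rows, so it could not differ and is no test of those settings. Only the minimum of counts could change it, through the pairs included. For low copies with very few counts, such as rps27a.L (SE of 1.75 on the log2 scale for RA), a shift in L share was not detectable at this depth. Libraries of one group differed by 14.3 to 21.6 times the counting noise (chi-square per degree of freedom).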
